A study of Mus musculus with 23 samples.

Results

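The genes described here were 10 genes of the endoplasmic reticulum (ER) stress response, chosen by name from the 55335 genes of the hippocampal count table: Hspa5, Hsp90b1, Calr, Pdia4, Sdf2l1, Herpud1, Xbp1, Atf4, Ddit3 and Trib3. RNA was sequenced from the whole hippocampus of 3xTg mice, a model of Alzheimer's disease (AD), and of WT controls, in 23 libraries from separate mice. The WT strain was labelled C57BL/6J x 129S1. The 3xTg strain, on a mixed B6;129 background, carries among its alleles human APP and tau transgenes driven in neurons by a Thy1 element. The groups at 8 months, WT-8M and 3xTg-8M (n = 4 each), were not operated on. The groups at 10 months all carried a brain cannula and an osmotic pump that infused the lateral ventricle for 28 days. The pump held 0.8% DMSO alone (WT-D and 3xTg-D, n = 4 each) or 80 µM of the stearoyl-CoA desaturase (SCD) inhibitor ab142089 in the same 0.8% DMSO (WT-S, n = 3, and 3xTg-S, n = 4). All mice were female. Age, surgery and DMSO therefore differ together between the 8-month and the 10-month mice, and no level was compared across the ages.

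The ER folds secreted and membrane proteins with the help of lumenal chaperones, and unfolded protein in its lumen is sensed by the membrane proteins IRE1, PERK and ATF6. IRE1 splices the Xbp1 mRNA, PERK phosphorylates the translation factor eIF2α so that translation falls while ATF4 protein rises, and ATF6 is cut to release a transcription factor. XBP1 and ATF6 raise chaperone and degradation genes, whereas ATF4 raises Ddit3, Trib3 and genes of amino acid supply. Neurons carry a heavy load of membrane protein synthesis, and markers of this response have been described in AD tissue. Counts per gene do not separate spliced from unspliced Xbp1 mRNA, and ATF4 is controlled largely in translation, which RNA levels do not show.

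The element through which ATF6 and XBP1 act on chaperone promoters is the ER stress element (ERSE), CCAAT and CCACG with 9 bases between them. The promoters of 250 bases before to 50 bases after the RefSeq start (GRCm38.p6) were searched for it on both strands, and all 10 genes matched an entry. It was present in 3 of the 10, Hspa5, Calr and Hsp90b1, and in 37 of 27025 promoters of all genes (0.137%). The sites are shown because they mark which of the genes share this sequence, with CCAAT and CCACG in capitals and 5 bases on either side, each on the strand that reads CCAAT first:
Hspa5, chr2:34772020-34772048, plus strand: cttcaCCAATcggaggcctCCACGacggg
Calr, chr8:84847070-84847098, plus strand: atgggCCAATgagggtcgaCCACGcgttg
Hsp90b1, chr10:86705633-86705661, minus strand: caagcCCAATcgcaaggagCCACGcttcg
Hsp90b1, chr10:86705528-86705556, plus strand: actcaCCAATcgtgcctcaCCACGcactc

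The base of the element farthest from the RefSeq start lay 65 bases before that start in Hspa5 and 162 bases before it in Calr. Hsp90b1 held 2 sites in opposite orientations, whose farthest bases lay 212 and 107 bases before its start. The Hspa5 site falls inside an exon of an annotated Hspa5 transcript that starts earlier, and the other sites shown lie outside annotated exons. Herpud1 instead held ERSE-II, ATTGG and CCACG with 1 base between them, which was found in 0.0444% of all promoters. Herpud1 and Trib3 held the letters TGATGNAA of the C/EBP-ATF response element (CARE) bound by ATF4, which 4.51% of all promoters hold. The unfolded protein response element letters TGACGTGG were in none of the 10 and in 0.714% of all promoters. No search letters were found in the windows of Pdia4, Sdf2l1, Xbp1, Atf4 and Ddit3, which says only that these letters are absent from this window. The Herpud1 and Trib3 matches are shown with the element letters in capitals:
Herpud1 ERSE-II, chr8:94386372-94386392, plus strand: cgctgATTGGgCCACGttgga
Herpud1 CARE, chr8:94386312-94386329, minus strand: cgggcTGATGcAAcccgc
Trib3 CARE, chr2:152344034-152344051, plus strand: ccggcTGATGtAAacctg

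The libraries held 12802267 to 36686413 counts assigned to genes (12992547 to 17575615 at 10 months), so counting error was small for the abundant genes of the set and large for Trib3. The strain labels were checked on Thy1, whose element drives the transgenes. It lay between 521.8 and 752.6 CPM (counts scaled to a library total of 1000000 gene counts) in the 11 WT libraries and between 1322.7 and 2263.2 CPM in the 12 3xTg libraries. Markers of hippocampal neurons (8 genes, among them Prox1, Neurod6 and Camk2a) summed to between 7437.0 and 9234.6 CPM in every library. No gene of the 8 was at 0 in all libraries of a group. A sum does not give the level of each gene, so it does not by itself identify the brain region. Markers of microglia (8 genes) were higher in 3xTg groups, with summed levels of 340.6 to 397.2 CPM in WT-8M and 401.9 to 490.5 CPM in 3xTg-8M, and of 346.3 to 403.8 CPM in WT-D against 359.3 to 542.4 CPM in 3xTg-D. All of these genes are measured in bulk tissue, where a change in the number of cells of a type and a change of RNA per cell cannot be told apart.

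In GRCm38 the lumenal chaperone genes lie at chr2:34771970-34777547 (Hspa5), chr10:86690209-86705509 (Hsp90b1), chr8:84841850-84846934 (Calr), chr6:47796141-47813430 (Pdia4) and chr16:17130138-17132383 (Sdf2l1), and Herpud1 at chr8:94386438-94395377. The transcription factor genes lie at chr11:5520659-5525893 (Xbp1), chr15:80255184-80257541 (Atf4) and chr10:127290774-127296288 (Ddit3), and Trib3 at chr2:152337422-152344032.

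Among the 10 genes, level per length of exon in WT-D, the 10-month WT group given vehicle, was highest for Calr, Hsp90b1 and Hspa5. Calr, the calcium-binding chaperone calreticulin, was at 128.5 ± 5.48 CPM per kb (SD, n = 4), followed by Hsp90b1, the ER HSP90 paralog GRP94, at 104.2 ± 2.66, and by Hspa5, the HSP70 chaperone BiP that holds the sensors inactive, at 77.3 ± 5.66. Atf4 was at 51.6 ± 2.62 CPM per kb, and the ranges of these 4 genes over libraries did not overlap. Xbp1 (23.2 ± 0.63), the disulfide isomerase gene Pdia4 (20.6 ± 2.42) and Herpud1 (18.6 ± 0.68 CPM per kb), a membrane protein of ER-associated degradation, followed, with neighbours in that order overlapping. Sdf2l1, a cofactor of ER chaperone complexes (7.69 ± 0.92), and Ddit3, the transcription factor CHOP (6.13 ± 0.90 CPM per kb), overlapped each other. Trib3, a pseudokinase induced by ATF4 and CHOP, was barely detected at 0.11 ± 0.01 CPM per kb, with 2 to 15 counts in a library.

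Of these, 9 genes passed the filter on low counts in every comparison. Trib3 was below it in every one, at 0.274 to 0.57 CPM in WT-8M, 0.365 to 0.547 in 3xTg-8M, 0.197 to 0.268 in WT-D, 0.132 to 0.577 in 3xTg-D, 0.385 to 0.58 in WT-S and 0.135 to 0.664 in 3xTg-S, and it was not tested. Ddit3 has 2 entries in the table. The second entry, a short gene model of 105 exon bases that lies within the first, was at 0 in all 23 libraries. Whether the counting dropped reads shared by the 2 models is not stated in the sources used here, so the level of Ddit3 is uncertain.

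**Figure D1:**
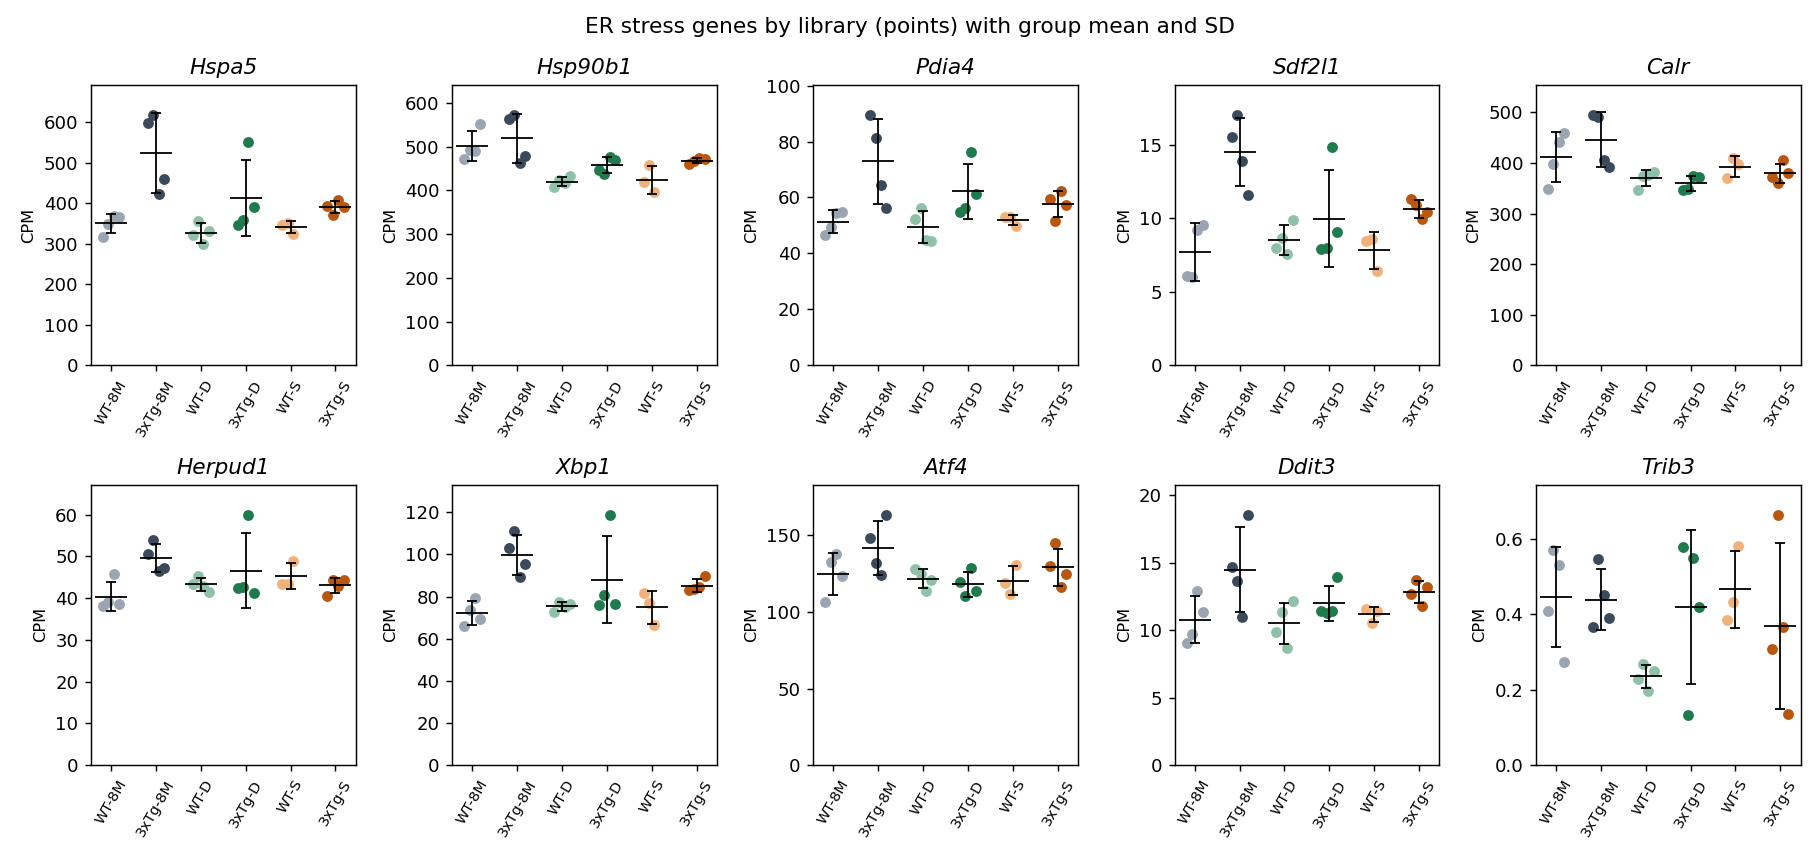
CPM (vertical axes from 0) of the 10 ER stress genes in each library, by group; each point is 1 mouse, and the bar and whiskers are the group mean and SD (n = 4, or 3 in WT-S). In Hspa5, Pdia4, Xbp1, Herpud1 and Sdf2l1 the 3xTg-8M points lie above all WT-8M points, and 1 library of 3xTg-D stands above the other 3 in the same 5 genes.

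The first comparison asked how the 3xTg hippocampus differs from WT at 8 months without any treatment. Xbp1, Hspa5, Sdf2l1 and Herpud1 rose in 3xTg-8M, by 1.23-fold (Herpud1) to 1.89-fold (Sdf2l1), and Pdia4, Ddit3, Atf4, Calr and Hsp90b1 did not pass the test. These 4 of 9 tested genes were called higher at an adjusted p under 0.05 (edgeR quasi-likelihood test, Benjamini-Hochberg over all genes tested), where 2.58% of all 15483 tested genes were called, 1.05% higher and 1.53% lower. All 9 of 9 log2 fold changes were above 0, as were 51.3% of those of all genes, and their median over the 9 was 0.44 against 0.006 over all genes. The groups did not overlap in 5 of the 9 genes, Hspa5, Pdia4, Sdf2l1, Herpud1 and Xbp1, and in 11.1% of all genes tested.

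Hspa5 was at 315.5, 349.1, 368.0 and 366.6 CPM in the 4 WT-8M libraries and at 598.7, 617.3, 421.4 and 458.7 CPM in the 4 3xTg-8M libraries. The lowest 3xTg library lay above the highest WT library, and 3xTg-8M replicates 1 and 2 stood well above the other pair. In each 8-month group replicates 1 and 2 had consecutive animal numbers, as had the other pair. The labels do not say what such a pair shares, and the fits took the mice as independent. The log2 fold change was 0.58 ± 0.11 (SE), or 1.498-fold with a 95% confidence interval of 1.27 to 1.77 (edgeR adjusted p = 0.0164). Hspa5 missed the threshold when WT-8M replicate 1 (log2 fold change 0.53, adjusted p = 0.051), WT-8M replicate 2 (0.58, adjusted p = 0.0606), 3xTg-8M replicate 1 (0.51, adjusted p = 0.055) or 3xTg-8M replicate 2 (0.51, adjusted p = 0.0584) was left out of the edgeR fit.

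Pdia4 was at 46.5, 49.5, 54.6 and 54.8 CPM in WT-8M and at 89.5, 81.4, 64.5 and 56.2 CPM in 3xTg-8M. The groups did not overlap but lay close (54.8 against 56.2 CPM at their nearest), and the same 3xTg replicates 1 and 2 were the highest. Its log2 fold change of 0.51 ± 0.12 did not pass the test (edgeR adjusted p = 0.0571), and it did pass when 3xTg-8M replicate 4 was left out (0.61, adjusted p = 0.0154). It also passed in the DESeq2 likelihood ratio test (0.50, adjusted p = 0.0054) and without a filter on low counts (edgeR, 0.50, adjusted p = 0.0007).

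Sdf2l1, the lowest of the tested chaperone genes, was at 6.05, 5.98, 9.23 and 9.55 CPM in WT-8M and at 15.5, 17.0, 13.9 and 11.6 CPM in 3xTg-8M. All 3xTg values were above all WT values, and WT-8M replicates 1 and 2 were low. Its log2 fold change of 0.92 ± 0.17 was the highest of the 9 genes at this age, or 1.89-fold with an interval of 1.45 to 2.45 (edgeR adjusted p = 0.0158). The call was lost without WT-8M replicate 2 (0.82, adjusted p = 0.0505), 3xTg-8M replicate 1 (0.88, adjusted p = 0.0587) or 3xTg-8M replicate 2 (0.85, adjusted p = 0.0544 in edgeR).

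The 2 most abundant chaperone genes per length did not pass the test. Hsp90b1 was at 473.0, 493.1, 491.3 and 552.2 CPM in WT-8M and at 562.9, 572.7, 461.9 and 478.9 CPM in 3xTg-8M, with overlapping groups and a log2 fold change of 0.05 ± 0.08 (1.03-fold, interval 0.916 to 1.17, edgeR adjusted p = 0.794). Calr was at 349.4, 397.5, 441.6 and 460.1 CPM in WT-8M and at 495.1, 491.8, 405.5 and 392.3 CPM in 3xTg-8M, with a log2 fold change of 0.12 ± 0.10 (1.08-fold, interval 0.933 to 1.26, edgeR adjusted p = 0.568). In both genes 3xTg-8M replicates 1 and 2 were above every WT-8M library, while replicates 3 and 4 fell within or below the WT range. The promoters of both hold the ERSE letters shown above, as does that of Hspa5.

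Herpud1 was at 38.2, 39.0, 45.7 and 38.6 CPM in WT-8M and at 50.6, 54.0, 46.5 and 47.3 CPM in 3xTg-8M. The groups did not overlap, though WT-8M replicate 3 lay close to the lowest 3xTg library. The log2 fold change was 0.30 ± 0.07 (1.23-fold, interval 1.11 to 1.37, edgeR adjusted p = 0.046). This call held in 1 of the 8 fits that each left out a library, the one without WT-8M replicate 3, and the adjusted p in the other 7 ran from 0.0534 to 0.151 in edgeR with log2 fold changes of 0.27 to 0.33. Herpud1 also missed the threshold with DESeq2 size factors and all libraries kept (0.30, edgeR adjusted p = 0.0501).

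Of the transcription factor genes, Xbp1 was at 66.1, 73.8, 79.3 and 69.2 CPM in WT-8M and at 103.2, 111.1, 89.2 and 95.4 CPM in 3xTg-8M. Every 3xTg library lay above the highest WT library (89.2 against 79.3 CPM at their nearest). Its log2 fold change of 0.47 ± 0.08 (1.39-fold, interval 1.24 to 1.56) had the smallest adjusted p of the 9 genes (edgeR, 0.0061), and Xbp1 was called in all 12 alternatives run for this comparison, with leave-one-out values from 0.43 to 0.52.

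Ddit3 was at 9.05, 9.75, 12.9 and 11.4 CPM in WT-8M and at 14.7, 13.7, 10.96 and 18.6 CPM in 3xTg-8M, where 3xTg-8M replicate 3 fell within the WT range. Its log2 fold change of 0.44 ± 0.16 did not pass (edgeR adjusted p = 0.193). Atf4 was at 106.3, 132.4, 137.6 and 123.8 CPM in WT-8M and at 148.3, 132.2, 123.8 and 163.5 CPM in 3xTg-8M, with overlapping groups and a log2 fold change of 0.19 ± 0.10 (edgeR adjusted p = 0.367). The highest library in both Ddit3 and Atf4 was 3xTg-8M replicate 4, which was not among the high libraries for the chaperone genes. That library also had the highest share of reads assigned to no gene (30.9%, against 25.0% to 26.7% in the other 8-month libraries) and a summed choroid plexus marker level of 697.2 CPM against 204.3 to 288.5 CPM in the others at 8 months. Their part in these values was not tested.

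Microglial markers moved with strain at this age, 7 of 8 being higher with a median log2 fold change of 0.22 and none of them called, and blood markers were higher in 5 of 5 with none called (3 at an unadjusted edgeR p under 0.05). WT-8M replicate 1 was the lowest WT-8M library in every tested gene of the set except Sdf2l1. Its oligodendrocyte markers summed to 3146.2 CPM, against 4385.3 to 5641.4 CPM in the other WT-8M libraries. Its meninges markers summed to 177.0 CPM, against 89.8 to 116.9 CPM in the others. The part of all these markers in the differences above was not tested.

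In vehicle-treated mice at 10 months, the strain comparison gave 0 calls among the 9 genes in edgeR, where 1.39% of 15528 genes tested were called, 0.638% higher and 0.753% lower. At an unadjusted edgeR p under 0.05, 3 of 9 passed, Hspa5, Pdia4 and Hsp90b1, all of them higher, against 13.1% of all genes. The DESeq2 likelihood ratio test also called 0 of the 9, and edgeR without a filter on low counts called 2, Hspa5 (adjusted p = 0.0065) and Pdia4 (adjusted p = 0.0135). Without the filter edgeR called 792 of all genes, against 216 with it. Of the 9 log2 fold changes 7 were above 0 (49% over all genes), with a median of 0.18.

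Hspa5 was at 320.6, 356.7, 299.1 and 330.5 CPM in WT-D and at 346.7, 359.5, 550.7 and 391.5 CPM in 3xTg-D. The groups overlapped, and 3xTg-D replicate 3 stood far above the other 3 libraries. The log2 fold change was 0.32 ± 0.12 (1.25-fold, interval 1.04 to 1.49, edgeR adjusted p = 0.267), and without that library it was 0.17.

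The same library was the highest of its group in Pdia4, Xbp1, Herpud1, Sdf2l1, Hsp90b1, Calr and Atf4. In Xbp1 it was at 118.8 CPM against 76.1, 80.6 and 76.7 in the other 3xTg-D libraries and 72.7, 77.4, 74.9 and 76.3 in WT-D. In Sdf2l1 it was at 14.9 CPM against 7.93, 7.99 and 9.06 in the others and 7.97, 8.66, 7.57 and 9.90 in WT-D. Without it the strain log2 fold change fell from 0.21 to 0.05 in Xbp1, from 0.22 to -0.03 in Sdf2l1 and from 0.09 to -0.04 in Herpud1, and stayed at 0.23 in Pdia4 (0.32 with it). Its summed marker levels were the lowest of the group for microglia (359.3 CPM against 451.6 to 542.4), oligodendrocytes (3747.2 against 5011.4 to 5898.3 CPM) and blood (4.9 against 37.3 to 67.8 CPM). They were also the lowest for hippocampal neurons (7907.0 against 8090.0 to 8490.3 CPM), astrocytes (4812.3 against 5095.2 to 5533.2 CPM) and endothelium (202.6 against 208.2 to 218.3 CPM). Its thalamus markers summed to 136.9 CPM, the highest of the 23 libraries, against 106.0 to 116.0 CPM in the rest of its group, with 3xTg-8M replicate 2 next at 131.7 CPM. The part of these in the values of both libraries was not tested.

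Hsp90b1 alone had groups that did not overlap in vehicle-treated mice, as did 7.28% of all genes. It was at 407.0, 424.1, 417.4 and 432.3 CPM in WT-D and at 446.0, 438.3, 475.9 and 469.7 CPM in 3xTg-D, a narrow separation with a log2 fold change of 0.11 ± 0.05 (1.08-fold, interval 1.01 to 1.15, edgeR adjusted p = 0.328). Atf4 and Calr were at or slightly below WT, with log2 fold changes of -0.06 ± 0.06 and -0.05 ± 0.05 that did not pass.

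Under the inhibitor, the comparison of 3xTg-S with WT-S also gave 0 calls among the 9 genes in edgeR, in DESeq2 and without a filter, where 1.32% of 15664 genes were called in edgeR, 0.613% higher and 0.702% lower. Again 7 of the 9 log2 fold changes were above 0 (51.2% over all genes). The groups did not overlap in 5 of 9, Hspa5, Hsp90b1, Xbp1, Ddit3 and Sdf2l1, against 10.6% of all genes, and 4 of these, all but Ddit3, were at an unadjusted edgeR p under 0.05. Hspa5 was at 347.0, 350.4 and 324.0 CPM in WT-S and at 391.8, 370.8, 407.6 and 390.1 CPM in 3xTg-S, with every 3xTg library higher and a log2 fold change of 0.19 ± 0.06 (1.14-fold, interval 1.04 to 1.26, edgeR adjusted p = 0.226). Sdf2l1 was at 8.47, 8.59 and 6.38 CPM in WT-S and at 11.3, 10.9, 9.94 and 10.4 CPM in 3xTg-S, a log2 fold change of 0.44 ± 0.13 (edgeR adjusted p = 0.189). Herpud1 and Calr were on the WT side, at -0.07 ± 0.07 and -0.05 ± 0.06. Microglial and oligodendrocyte markers were higher in 3xTg-S in 8 of 8 and 7 of 7 genes, 3 of each called, and their part was not tested.

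At an unadjusted edgeR p under 0.01, the threshold of the study's own test, 5 of 9 genes passed at 8 months (6.88% of all genes), 0 under vehicle (4.95%), 2 under the inhibitor (4.14%), 0 between 3xTg-S and 3xTg-D (2.52%) and 3 between 3xTg-S and WT-D (6.59%).

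**Figure D2:**
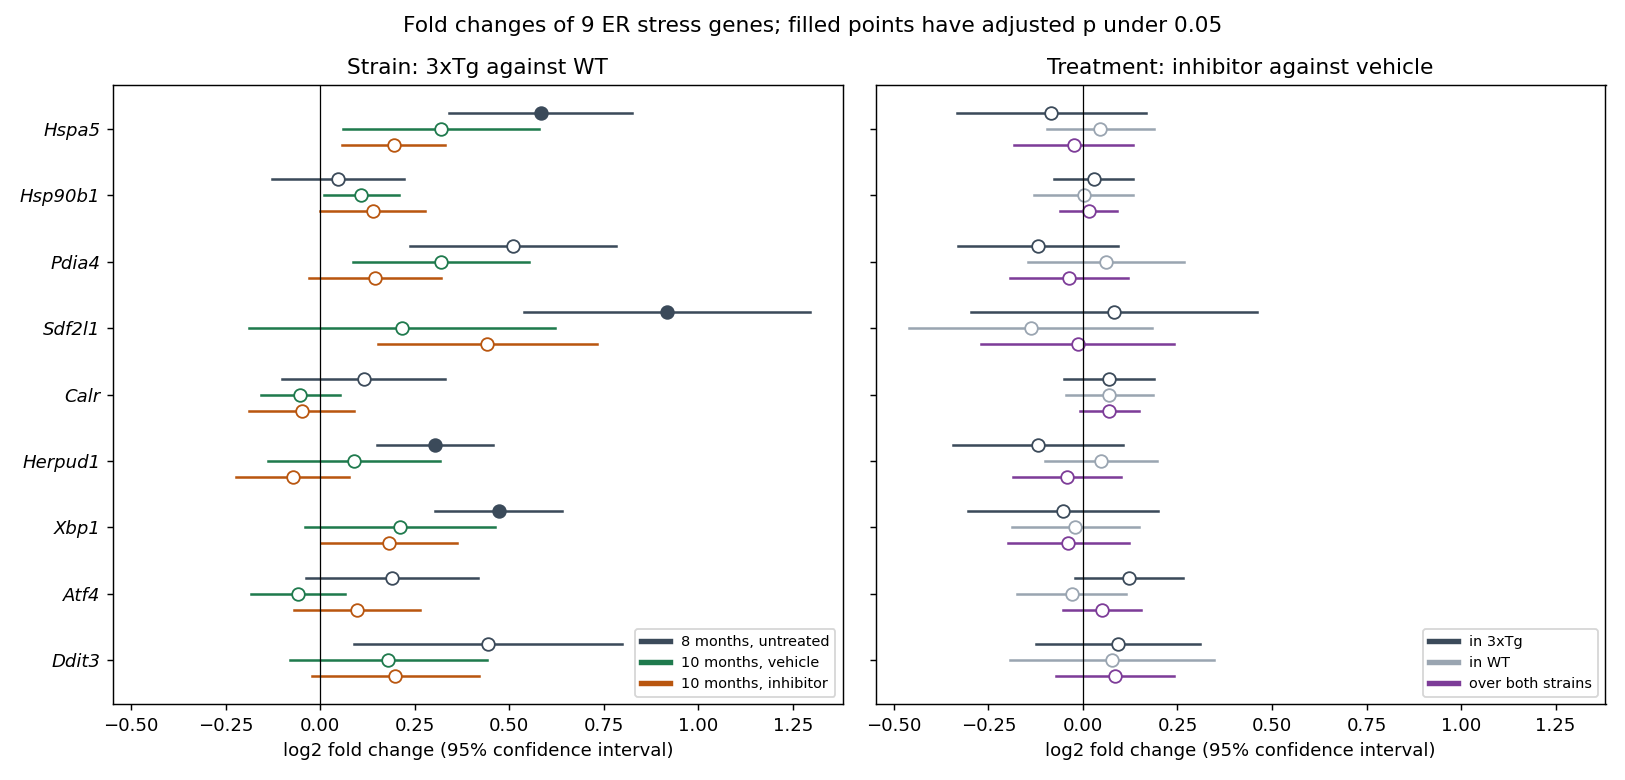
Log2 fold changes (horizontal axes) of the 9 tested genes with 95% confidence intervals, for strain at 8 months, under vehicle and under inhibitor (left) and for inhibitor against vehicle in 3xTg, in WT and over both (right); filled points have an adjusted p under 0.05. The 4 filled points are Hspa5, Sdf2l1, Herpud1 and Xbp1 at 8 months, and each interval on the right includes 0.

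The treatment experiment asked what SCD inhibition changed in each strain. None of the 9 genes was called in edgeR in any of the comparisons of inhibitor with vehicle, and no group of the 9 separated from its vehicle group, where 6.89% of genes did between the 3xTg groups and 4.94% between the WT groups. Between 3xTg-S and 3xTg-D, 0 of 9 genes passed at an adjusted p or at an unadjusted edgeR p under 0.05, where 0% and 11.2% of 15530 genes did. The log2 fold changes lay between -0.12 (Herpud1) and 0.12 (Atf4), with a median of 0.03. The 95% intervals of the 9 genes together ran from 0.788-fold (Herpud1) to 1.38-fold (Sdf2l1).

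Hspa5 was at 346.7, 359.5, 550.7 and 391.5 CPM in 3xTg-D, as given above, and at 391.8, 370.8, 407.6 and 390.1 CPM in 3xTg-S. The inhibitor-treated libraries lay inside the range of the vehicle-treated ones. The log2 fold change of -0.08 ± 0.12 (0.943-fold, interval 0.793 to 1.122) turned to 0.08 when 3xTg-D replicate 3 was left out, and Xbp1 turned from -0.05 to 0.12 and Herpud1 from -0.12 to 0.02. The spread of Hspa5 was 94.3 CPM (SD, n = 4) in 3xTg-D and 15.1 CPM in 3xTg-S.

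Between WT-S and WT-D, 0 of 9 genes passed at an adjusted p or at an unadjusted edgeR p under 0.05, where 0% and 3.42% of 15724 genes did. The log2 fold changes ran from -0.14 (Sdf2l1) to 0.08 (Ddit3), and the intervals from 0.727-fold to 1.27-fold. Averaged over both strains, the inhibitor effect ran from -0.04 (Herpud1) to 0.08 (Ddit3) with 95% intervals that together lay between 0.82899-fold and 1.18-fold, and 0 of 9 passed at either threshold (0% and 13.6% of 16262 genes). The DESeq2 likelihood ratio test called 0 of the 9 in each of the 3 inhibitor comparisons. Choroid plexus markers summed to 787.6 CPM in WT-S replicate 2 and 588.4 CPM in 3xTg-S replicate 2, against 211.9 to 377.5 CPM in the 13 other libraries of this age. Their part was not tested.

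The interaction of strain and treatment, the test of whether the inhibitor acted differently in the 2 strains, called 0 of 9 genes, as it did 0% of 16262 genes, with 0 of 9 at an unadjusted edgeR p under 0.05 and intervals of the difference from 0.714-fold to 1.68-fold. For a single gene, a difference of any size inside its interval was not excluded with this number of mice. Set against WT-D, 3xTg-S gave 0 of 9 calls in edgeR (2.29% of 15567 genes were called, 1.19% higher), with 6 of 9 at an unadjusted p under 0.05 (16.9% of all genes) and 4 of 9 with groups that did not overlap (10.1%). Hspa5 lay nearest the threshold (0.24 ± 0.06, edgeR adjusted p = 0.0593), and it passed without WT-D replicate 2 (0.28, adjusted p = 0.0407) or 3xTg-S replicate 2 (0.27, adjusted p = 0.0369). The DESeq2 likelihood ratio test called Hspa5 (adjusted p = 0.0081) and Hsp90b1 (adjusted p = 0.0256), among 583 of all genes. This comparison shares its WT-D libraries with that of 3xTg-D. Markers of microglia (8 of 8 genes, 4 called), oligodendrocytes (7 of 7, 3 called) and blood (5 of 5, 1 called, median log2 fold change 1.81) were on the 3xTg-S side, and their part was not tested.

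With the strain effect averaged over the untreated, vehicle and inhibitor pairs in a fit of all 23 libraries, 5 of 9 genes were called, all higher, where 11.2% of 16555 genes were called, 5.33% higher and 5.85% lower. All 9 log2 fold changes were above 0 (51.7% over all genes), and 6 of 9 were at an unadjusted edgeR p under 0.05 against 24.1%. Hspa5 rose by 0.38 ± 0.07 on the log2 scale (1.30-fold, interval 1.17 to 1.44, edgeR adjusted p = 0.0009). Sdf2l1 rose by 0.54 ± 0.12 (1.46-fold, edgeR adjusted p = 0.003), Pdia4 by 0.34 ± 0.07 (1.26-fold, edgeR adjusted p = 0.0027), Xbp1 by 0.30 ± 0.06 (1.23-fold, edgeR adjusted p = 0.0024) and Ddit3 by 0.28 ± 0.08 (1.22-fold, edgeR adjusted p = 0.0221). These 5 stayed called in all 27 alternatives, among them the fits that each left out 1 library. The other 4, Hsp90b1 (0.10 ± 0.04), Herpud1 (0.12 ± 0.06), Atf4 (0.08 ± 0.05) and Calr (0.01 ± 0.05), did not pass, and Hsp90b1 passed without WT-8M replicate 4 (0.12, edgeR adjusted p = 0.032) or 3xTg-8M replicate 3 (0.12, edgeR adjusted p = 0.0259). This average takes in the 8-month comparison and is not independent of it. In the same fit, markers of microglia were on the 3xTg side in 8 of 8 genes (5 called), of blood in 5 of 5 (2 called, median 0.96), of oligodendrocytes in 6 of 7 (1 called) and of astrocytes in 6 of 7 (1 called), while 2 of 8 markers of hippocampal neurons were called lower. Their part was not tested.

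The strain effect was lower under vehicle at 10 months than at 8 months in 8 of 9 genes, by 0.70 ± 0.27 on the log2 scale in Sdf2l1 and by 0.26 ± 0.18 in Hspa5. Of all genes, 50.4% had a higher strain effect under vehicle. The test of this difference called 0 of 9 (0.031% of 16108 genes were called in each direction), as did DESeq2. Only Sdf2l1, 1 of 9, was at an unadjusted edgeR p under 0.05 (9.57% of all genes), with an edgeR adjusted p of 0.48. Without 3xTg-D replicate 3 the difference was -0.95 in Sdf2l1 and -0.42 in Hspa5. Age, surgery and DMSO cannot be told apart in it.

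Beyond the group means, Hspa5 and most of the other chaperone and target genes varied together from mouse to mouse. After each library's log2 CPM was set relative to its group's mean, Hspa5 correlated over 23 libraries with Pdia4 (Pearson's r = 0.86, Spearman's rho = 0.89), Xbp1 (r = 0.83, rho = 0.79), Sdf2l1 (r = 0.75, rho = 0.71), Herpud1 (r = 0.71, rho = 0.64), Hsp90b1 (r = 0.69, rho = 0.72) and Calr (r = 0.63, rho = 0.68). In a two-sided permutation test within groups (100000 permutations, adjusted over the 9 pairs), r had an adjusted p of 0.0008 for Pdia4, 0.0022 for Xbp1, 0.0041 for Sdf2l1, 0.0252 for Herpud1, 0.0058 for Hsp90b1 and 0.0064 for Calr, and the raw permutation p ran from 9e-05 to 0.0168. The adjusted permutation p of rho ran from 0.0002 (Pdia4) to 0.0163 (Herpud1) over these 6 pairs.

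Ddit3 (r = 0.18, rho = 0.20), Atf4 (r = 0.21, rho = 0.15) and Trib3 (r = 0.12, rho = 0.03) did not correlate with Hspa5 beyond the permutations, with raw permutation p for r of 0.591, 0.462 and 0.708 and adjusted permutation p of 0.664, 0.594 and 0.708. Trib3 had too few counts for its value to carry weight. Without the 2 libraries farthest from the median of Hspa5, 3xTg-D replicate 3 and 3xTg-8M replicate 3, r was 0.87 for Pdia4, 0.71 for Hsp90b1, 0.71 for Sdf2l1, 0.70 for Calr and 0.70 for Xbp1, and dropped to 0.47 for Herpud1. The group means still included these 2 libraries and were not taken again. These r therefore still depend in part on the libraries left out and do not show how far each correlation rests on them. Within the 8 libraries of 8 months r was 0.87 for Pdia4, 0.83 for Xbp1, 0.90 for Hsp90b1, 0.86 for Calr, 0.67 for Herpud1 and 0.60 for Sdf2l1. In 3xTg-8M, Hspa5 and each of these genes lay above the group mean in replicates 1 and 2 and below it in the other pair. Both pairs had consecutive animal numbers, and the permutations did not keep such pairs together. Within the 15 libraries of 10 months r was 0.87 for Pdia4, 0.88 for Xbp1, 0.87 for Sdf2l1 and 0.76 for Herpud1, against 0.46 for Hsp90b1 and 0.38 for Calr.

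**Figure D3:**
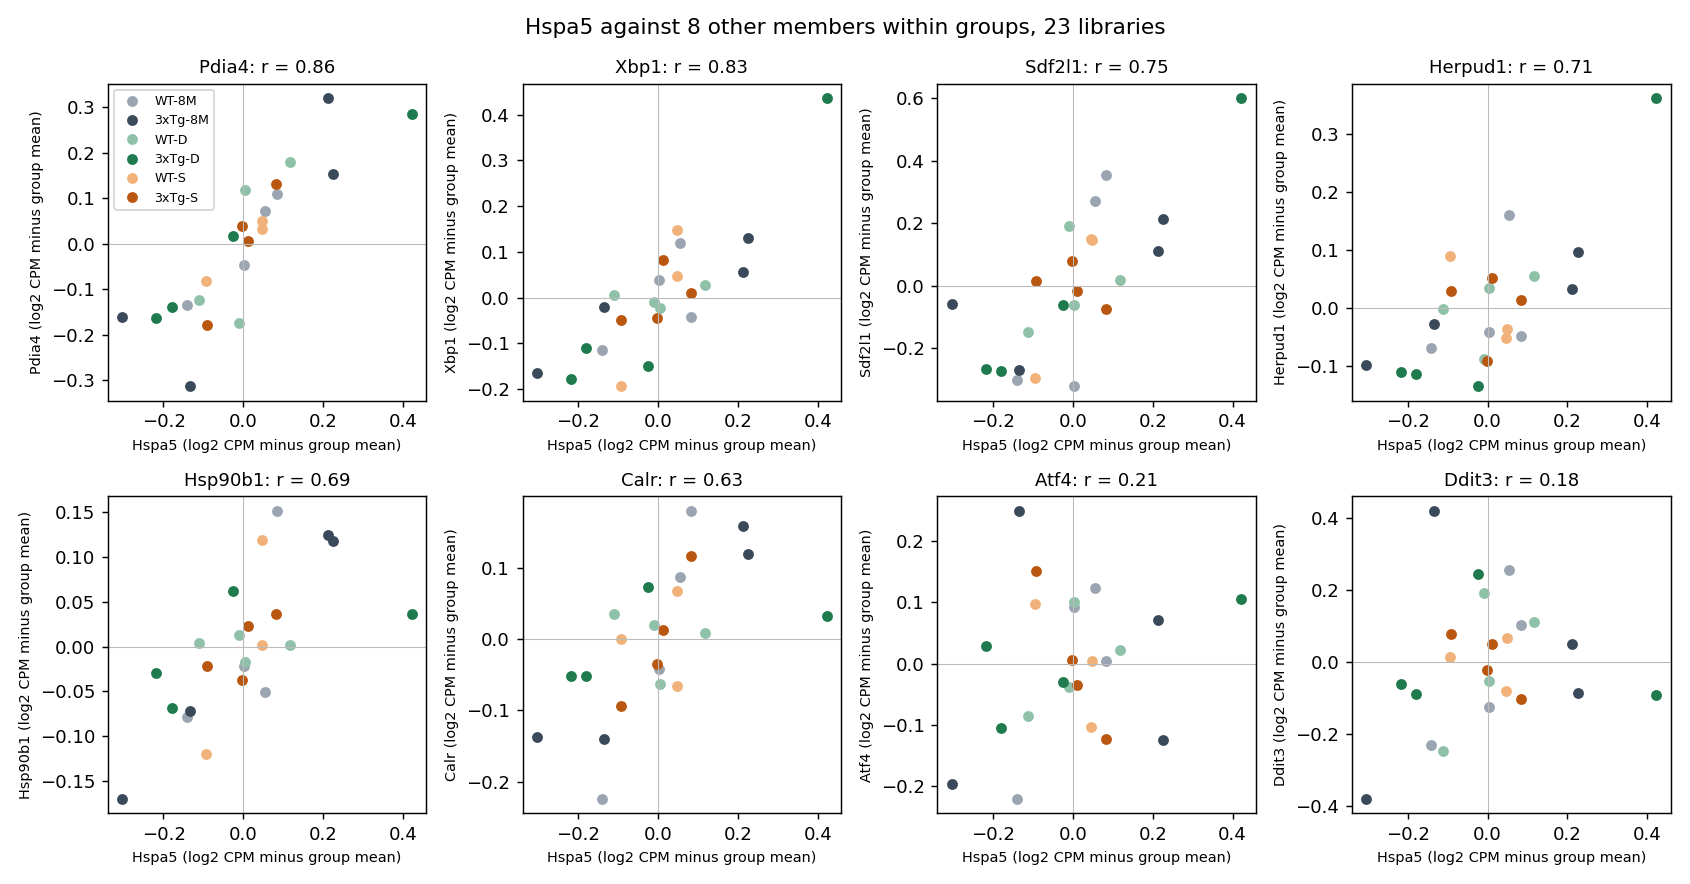
Log2 CPM of Hspa5 (horizontal axes) against 8 other genes of the set (vertical axes), each minus its group mean; each point is 1 of 23 libraries, coloured by group. The points of Pdia4 rise along a line (r = 0.86) while those of Atf4 and Ddit3 scatter (r = 0.21 and 0.18), and the point of 3xTg-D replicate 3 lies farthest right in all panels.

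When the 11641 genes outside the set that averaged 5 CPM or more were compared, the profile most like that of Hspa5 by the same measure over 23 libraries belonged to Manf, an ER stress-induced secreted factor (r = 0.89). Ezr, encoding the membrane-cytoskeleton linker ezrin (r = 0.87), Mknk2, encoding a kinase of the translation factor eIF4E (r = 0.84), Icosl, encoding a ligand of the T cell receptor ICOS (r = 0.83), and the histone gene Hist1h2be (r = 0.82) came next. Ranked with the other members of the set among 11649 genes, Pdia4 came 3rd, Xbp1 5th, Sdf2l1 18th, Herpud1 45th, Hsp90b1 63rd and Calr 124th. Atf4 and Ddit3 came 2814th and 3152nd.

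The other genes of the pathway were taken from 7 lists with 99 genes in all. Among the ER folding enzymes and chaperones, 2 of 20 rose at 8 months and 0 fell, where 1.05% of all genes rose and 1.53% fell, and the median log2 fold change was 0.07. Manf was at 38.2, 41.9, 45.2 and 48.3 CPM in WT-8M and 67.4, 62.6, 51.2 and 58.3 CPM in 3xTg-8M, a rise of 0.47 ± 0.10 (edgeR adjusted p = 0.0246), and Creld2, an isomerase-like ER stress gene, rose by 0.72 ± 0.15 from 9.4 to 13.8 CPM in WT-8M to 15.01 to 21.7 CPM in 3xTg-8M (edgeR adjusted p = 0.0246). In neither gene did the groups overlap. Manf missed the threshold without WT-8M replicates 1, 2 or 3 or 3xTg-8M replicates 1 or 2 (0.40 to 0.48, edgeR adjusted p of 0.0586 to 0.0871), and Creld2 without WT-8M replicates 1 or 2 or 3xTg-8M replicates 1, 2 or 4 (0.61 to 0.72, edgeR adjusted p of 0.0516 to 0.0922). Over all 23 libraries 6 of 20 folding genes rose and 0 fell, against 5.33% and 5.85% of all genes: Creld2 (0.45 ± 0.09), Manf (0.25 ± 0.06), the disulfide isomerase Pdia6 (0.21 ± 0.05), the BiP cochaperones Dnajc3 (0.20 ± 0.05) and Dnajb11 (0.13 ± 0.04), and the HSP70-like Hyou1 (0.17 ± 0.05), with edgeR adjusted p from 0.0012 (Creld2) to 0.0423 (Dnajb11). Dnajb11 was called in 13 of 27 alternatives and the other 5 in 27.

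The sensors and proteases that start the response (7 genes, among them Ern1, Eif2ak3 and Atf6) gave 0 of 7 calls at 8 months and 0 of 7 over all libraries, where 2.58% and 11.2% of all genes were called, with medians of 0.002 and -0.03. Over all libraries Ern1, encoding IRE1, was at -0.08 ± 0.06, Eif2ak3, encoding PERK, at 0.01 ± 0.04 and Atf6 at -0.06 ± 0.04. ER-associated degradation gave 0 of 17 in both, with medians of 0.05 and 0.03. ER translocation gave 0 of 15 at 8 months and 1 of 15 over all libraries, the signal peptidase subunit Spcs2 (0.14 ± 0.03, edgeR adjusted p = 0.0045), beside the same shares of all genes.

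In the branch through eIF2α and ATF4, none of the 20 ATF4 target genes was called in edgeR at 8 months (1 at an unadjusted p under 0.05, Cebpb at 0.57 ± 0.18) or over all 23 libraries (1 at an unadjusted p under 0.05), with medians of 0.02 and 0.03, and the DESeq2 likelihood ratio test called 0 in both. Of all genes, 2.58% were called in edgeR at 8 months and 11.2% over all libraries, and 17.4% and 24.1% were at an unadjusted p under 0.05. Without a filter on low counts edgeR called 1 at 8 months, among 854 of all genes. Asns, the asparagine synthetase gene that ATF4 is known to induce, was at 123.1 to 143.0 CPM in WT-8M and 122.5 to 148.9 CPM in 3xTg-8M, ranges that overlapped. Of the 7 regulators of the integrated stress response, 0 were called at 8 months and 1 over all libraries, Eif2ak2, encoding the double-stranded RNA-activated kinase PKR, which rose by 0.50 ± 0.10 (edgeR adjusted p = 0.0009), where 5.33% of all genes rose.

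Cytosolic heat shock genes gave 2 of 13 calls at 8 months, both higher, where 2.58% of all genes were called and 1.05% rose: the inducible HSP70 gene Hspa1b (0.80 ± 0.14, edgeR adjusted p = 0.0085) and its cochaperone Dnajb1 (0.41 ± 0.08, edgeR adjusted p = 0.0168). Dnajb1 missed the threshold without WT-8M replicates 2 or 4 or 3xTg-8M replicates 1 or 2 (0.38 to 0.42, edgeR adjusted p of 0.0518 to 0.072), and Hspa1b stayed called. Over all libraries 4 of 13 rose, where 11.2% of all genes were called and 5.33% rose: Hspb1 (0.82 ± 0.23), Hspa8 (0.79 ± 0.19), Hspa1b (0.48 ± 0.12) and Dnajb1 (0.22 ± 0.06). Hspa8, the constitutive HSP70 gene, varied among WT mice. It was at 221.1, 246.0, 400.8 and 430.3 CPM in WT-8M, at 101.4, 366.9, 108.6 and 113.5 CPM in WT-D and at 249.1, 113.9 and 134.6 CPM in WT-S, while all 3xTg libraries lay between 322.6 and 421.8 CPM. Hspa1a and Hspa1b are near-identical copies, and Hspa8 has processed copies in the genome, so the counts of all 3 are uncertain.

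**Figure D4:**
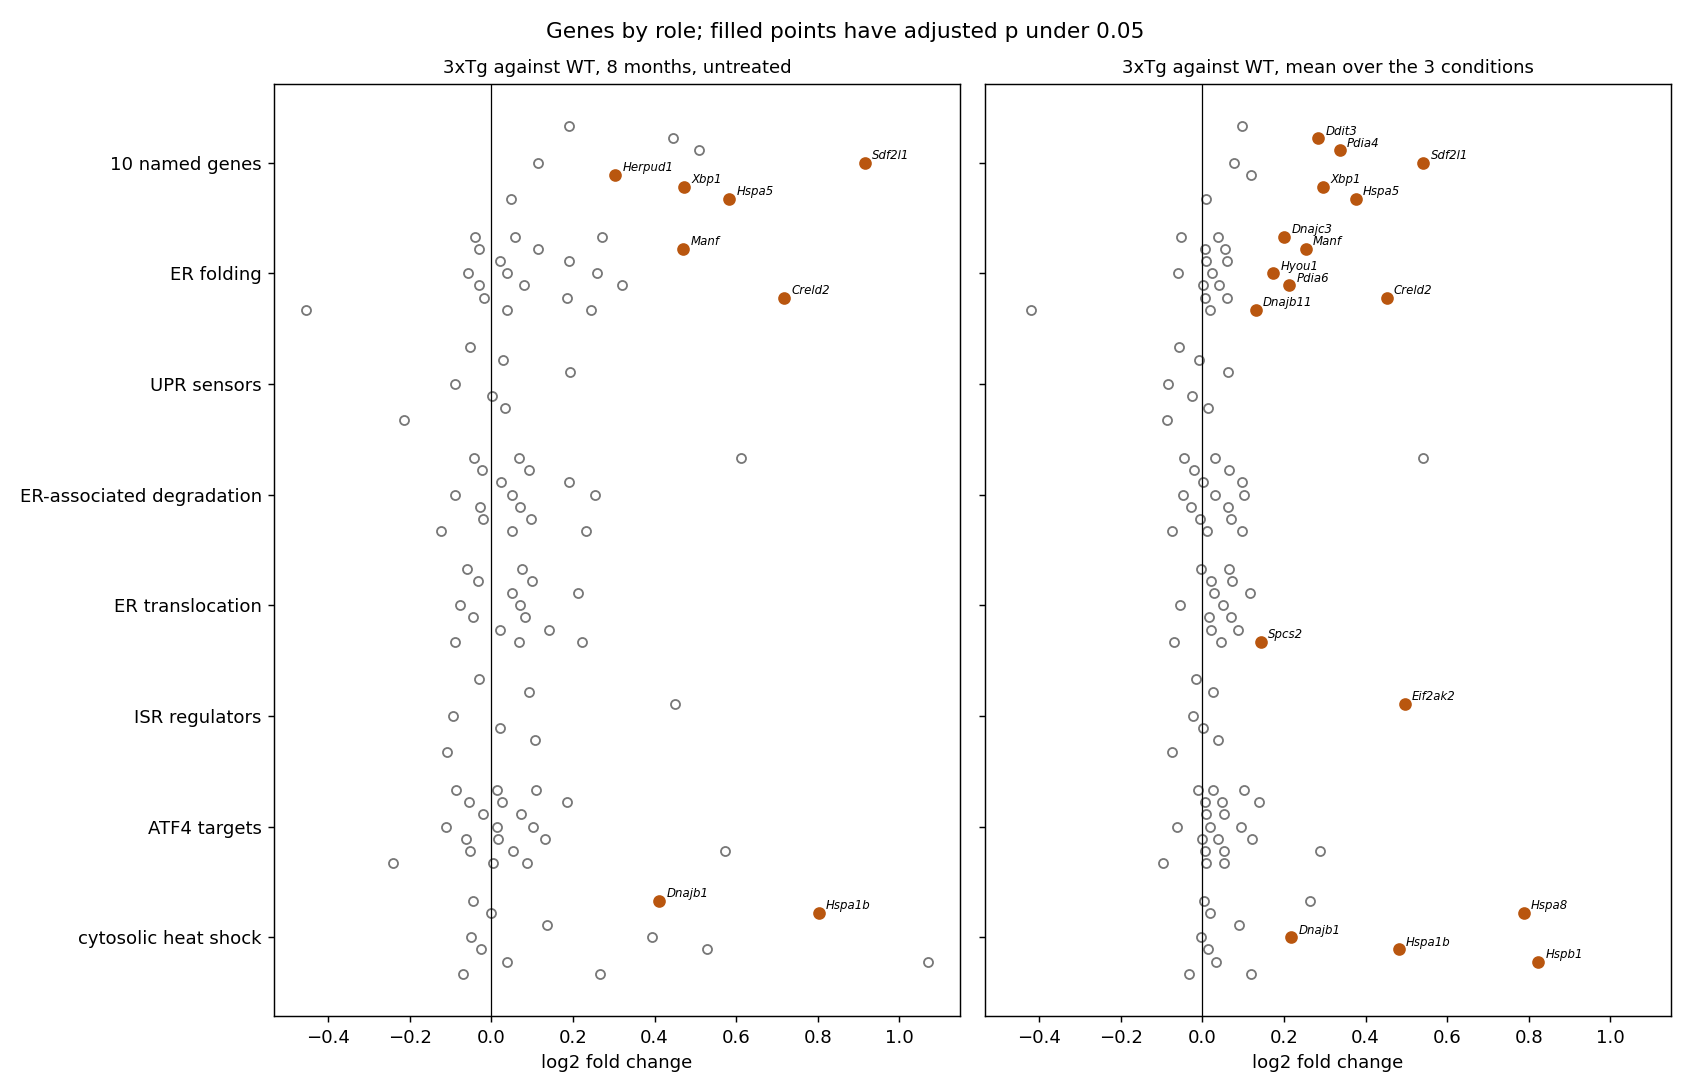
Log2 fold change of 3xTg against WT (horizontal axes) for each tested gene, in rows by role, at 8 months (left) and averaged over the 3 conditions in all 23 libraries (right); vertical offsets within a row only separate the points, and filled, named points have an adjusted p under 0.05. Filled points lie in the top 2 rows and in the heat shock row on the left, with 0 of 7 among the sensors and 0 of 20 among the ATF4 targets on either side.

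The ERSE letters shown above also occurred in the promoters of 5 of 16 folding genes (Canx, Creld2, Dnajc3, Ero1b and Pdia6) and 2 of 13 degradation genes (Derl3 and Syvn1), and in 0 of 18 ATF4 target promoters, of which 6 held the CARE letters. The called genes among those that hold the letters went in both directions. Of 30 genes with the full ERSE letters outside the set, 14 were tested at 8 months, of which 1 was called higher (Creld2) and 1 lower (Hnrnpa3, -0.65 ± 0.10, edgeR adjusted p = 0.0032). Of all genes at 8 months, 1.05% were called higher and 1.53% lower. Over all libraries 16 were tested, with 3 called higher (Creld2, Pdia6 and Dnajc3) and 3 lower (Hnrnpa3, Xlr3a and Xlr3b) and a median of 0.03. Of all genes in that fit, 5.33% were called higher and 5.85% lower. Within the set, Hspa5 was called while Calr and Hsp90b1 with the same letters were not, and Pdia4, Sdf2l1, Xbp1 and Ddit3 were called over all libraries without them.

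In the vehicle comparison 0 of the 99 pathway genes were called in edgeR or DESeq2, where 1.39% of all genes were called in edgeR. An unadjusted edgeR p under 0.05 was reached by 10, against 13.1% of all genes. In the inhibitor comparison between 3xTg-S and WT-S only Hspa8 of 98 tested was called (1.11 ± 0.21, edgeR adjusted p = 0.0253), where 1.32% of all genes were. The Hspa8 call was lost without WT-S replicate 2 (0.90, edgeR adjusted p = 0.0696), WT-S replicate 3 (0.97, adjusted p = 0.122), 3xTg-S replicate 1 (1.10, adjusted p = 0.0795) or 3xTg-S replicate 4 (1.10, adjusted p = 0.076). Hspa8 also missed the threshold with the block for animal number runs (1.18, edgeR adjusted p = 0.0791) and in the fit of all 15 libraries of 10 months (1.11, edgeR adjusted p = 0.174). For 3xTg-S against WT-D, Pdia6 alone of the 99 was called (0.20 ± 0.05, edgeR adjusted p = 0.0499), where 2.29% of all genes were. The Pdia6 call was lost in each of the 8 fits that left out a library (0.18 to 0.23, edgeR adjusted p of 0.0547 to 0.158). Pdia6 also missed the threshold with DESeq2 size factors, without a filter on low counts, with the trend of length and GC removed and with the block (0.16 to 0.20, edgeR adjusted p of 0.0578 to 0.108). In the comparisons of inhibitor with vehicle 0 of the 99 were called in edgeR or in DESeq2, where 0% of all genes were called in edgeR. An unadjusted edgeR p under 0.05 was reached by 14 in 3xTg (11.2% of all genes), 4 of 98 tested in WT (3.42%) and 20 over both strains (13.6%). The smallest such p over both strains was that of Sil1, the nucleotide exchange factor of BiP, at 0.24 ± 0.05 (unadjusted p = 0.0003, edgeR adjusted p = 0.241).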

How the data were processed

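Hippocampal RNA of 23 mice was sequenced by the authors as single-end reads from mRNA libraries, trimmed with Trimmomatic 0.35 and aligned to GRCm38 with STAR 2.5.1b (Gencode annotation). The deposited table holds whole-number gene counts with no normalization. The strand setting and the use of molecular identifiers were not given in the sources used here. Rows that name no gene (4 of the table, 24.7% to 30.9% of reads) entered neither library sizes nor tests. Groups are those of the sample titles, whose animal numbers name separate mice. Every pair of replicates differed by more than counting noise (chi-square per gene of at least 2.37, log2 CPM r of 0.996 to 0.998).

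CPM is the count scaled to a library total of 1000000 counts assigned to genes. Fold changes and p-values come from the quasi-likelihood test of edgeR 4.0.16 (R 4.3.3) on the counts as deposited, with filterByExpr and TMM factors (0.968 to 1.023), Benjamini-Hochberg adjusted over all genes tested, a threshold of 0.05 and a prior count of 2 for log2 CPM. Each pairwise fit held the libraries of its own 2 groups. The average strain effect was fitted over all 23 libraries, and the inhibitor effect and the interaction over the 15 of 10 months. DESeq2 1.42.0 and Python 3.11.15 were also used, and the scripts were tested on simulated data. Correlations used log2 CPM centred within groups and 100000 permutations within groups.

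The 10 genes, the lists and the markers were chosen with earlier results of these data known. Named were all 10 genes, from each list the genes called (at most 3 in a direction, by adjusted p, or else at most 2 by unadjusted p), and the 5 genes most like Hspa5 at a mean of 5 CPM or more. Asns, Ern1, Eif2ak3, Atf6, Hyou1, Dnajb11, Hspb1, Hnrnpa3, Xlr3a, Xlr3b and the promoter examples were named after their values were seen. Promoter windows and sequences are RefSeq's on GRCm38.p6. Exon lengths are from Gencode M21, which matched 99.7% of the genes, whereas the authors used a later release. Alternatives were DESeq2 size factors, no filter, the DESeq2 likelihood ratio test, an unadjusted p under 0.01, removal of a trend with length and GC, a block of 4 consecutive animal numbers, a common fit at 10 months, and each library left out. The full allele label of the 3xTg strain is not reported here.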

Additional observations from a re-analysis of the deposited data

Results flagged for a closer look

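Of 50 pairs of a gene and a group of 4 libraries that were checked, 5 had 1 library whose gap to the nearest other library exceeded Dixon's 95% limit, a limit that chance passes in about 1 in 20 groups. In 3xTg-D, replicate 3 was high in Xbp1 (118.834 CPM, others 76.1 to 80.6), Herpud1 (59.9955 CPM, others 41.1 to 42.7) and Sdf2l1 (14.9 CPM, others 7.93 to 9.06). These 3 values are of 1 library and are not independent of each other, and the values without it stand beside the results above. Replicate 4 of 3xTg-D was high in Ddit3 (13.9 CPM, others 11.3 to 11.4). Replicate 3 of WT-8M was high in Herpud1 (45.7 CPM, others 38.2 to 39.0).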

How the results depend on the processing

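Without a filter on low counts, edgeR called 7 pathway genes at 8 months (4 with it), 2 of the set and 3 pathway genes under vehicle (0 and 0), 2 pathway genes between 3xTg-S and WT-S (1), and 1 of the set and 4 pathway genes between 3xTg-S and WT-D (0 and 1). In the same order of comparisons, that setting called 854, 792, 729 and 1135 of all genes. With the trend of length and GC removed, the pathway counts were 7 at 8 months and 0 between 3xTg-S and WT-D. At an unadjusted p under 0.01, 11 pathway genes passed at 8 months (6.88% of all genes) and 2 under vehicle (4.95% of all genes). Between 3xTg-S and WT-S, 2 of the set and 2 pathway genes passed (4.14%), and between 3xTg-S and 3xTg-D 5 pathway genes (2.52%). Between 3xTg-S and WT-D, 3 of the set and 7 pathway genes passed (6.59%). For the inhibitor over both strains it was 8 pathway genes (4%). The DESeq2 likelihood ratio test called 2 of the set and 2 pathway genes between 3xTg-S and WT-D, among 583 of all genes. In that comparison edgeR with DESeq2 size factors called 0 pathway genes. A block for animal number runs gave 0 pathway genes between 3xTg-S and WT-S and 2 between 3xTg-S and WT-D, and the fit of all 15 libraries of 10 months gave 0 between 3xTg-S and WT-S. The correlation of Hspa5 with Herpud1 was 0.65 with the trend of length and GC removed (permutation adjusted p = 0.0505). The cause of these shifts was not tested.

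With 1 library left out, the set had 1 to 4 calls at 8 months and 0 to 1 between 3xTg-S and WT-D, and the pathway lists had 1 to 5 at 8 months, 0 to 1 under vehicle, 0 to 1 between 3xTg-S and WT-S, 0 to 1 between 3xTg-S and WT-D, and 0 to 1 for the difference of the strain effects. Of all genes, these fits called 227 to 449 at 8 months, 125 to 200 under vehicle and 105 to 286 between 3xTg-S and WT-S. They called 155 to 341 between 3xTg-S and WT-D, and 6 to 17 for the difference. The counts at 8 months fell to 2 of the set and 2 pathway genes without WT-8M replicate 1, and to 1 and 1 without WT-8M replicate 2, 3xTg-8M replicate 1 or 3xTg-8M replicate 2. Without WT-D replicate 2, 1 pathway gene was called under vehicle and 1 for the difference.

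Small effects that no test called changed sign. With the trend of length and GC removed, the log2 fold change was -0.012 (Ddit3) and -0.055 (Sdf2l1) between 3xTg-S and 3xTg-D, -0.016 (Herpud1) between WT-S and WT-D, -0.023 (Calr) and -0.0071 (Atf4) between 3xTg-S and WT-D, -0.026 (Atf4) for the inhibitor over both strains, -0.032 (Ddit3) for the interaction and -0.041 (Hsp90b1) for the difference of the strain effects. Between WT-S and WT-D, Hsp90b1 was at -0.0028 with DESeq2 size factors and in the DESeq2 test, -0.013 without a filter, -0.0083 with the block and -0.00012 in the fit of 15 libraries, and Atf4 was at 0.00301 with the block. Xbp1 was at 0.018 for the interaction with the block.

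Leaving out 1 library gave these ranges of log2 fold change. Under vehicle they were -0.037 to 0.14 (Herpud1) and -0.026 to 0.31 (Sdf2l1). Between 3xTg-S and 3xTg-D they were -0.15 to 0.078 (Hspa5), -0.11 to 0.12 (Xbp1), -0.16 to 0.0195 (Herpud1) and -0.012 to 0.34 (Sdf2l1). Between WT-S and WT-D they were -0.062 to 0.066 (Hsp90b1), -0.095 to 0.078 (Xbp1), -0.074 to 0.018 (Atf4) and -0.22 to 0.0051 (Sdf2l1). Between 3xTg-S and WT-D they were -0.022 to 0.056 (Calr) and -0.054 to 0.0059 (Herpud1), and for strain over all libraries -0.019 to 0.023 (Calr). For the inhibitor over both strains they were -0.056 to 0.062 (Hspa5), -0.0072 to 0.0401 (Hsp90b1), -0.065 to 0.024 (Pdia4), -0.071 to 0.049 (Xbp1), -0.072 to 0.034 (Herpud1) and -0.072 to 0.11 (Sdf2l1). For the interaction they were -0.201 to 0.032 (Hspa5), -0.033 to 0.0903 (Hsp90b1), -0.038 to 0.036 (Calr), -0.13 to 0.14 (Xbp1) and -0.052 to 0.11 (Ddit3).

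No paired analysis was possible because no 2 groups share an animal number. The block used above joins runs of 4 consecutive animal numbers at 10 months, and the labels do not say what such a run shares. No fit blocked the pairs of consecutive animal numbers at 8 months. The number of all genes called also moved: at 8 months from 399 to 854 without a filter and 684 in DESeq2, under vehicle from 216 to 792 and 386, between 3xTg-S and WT-S from 206 to 729 without a filter and 78 with the block, and for the inhibitor over both strains from 0 to 94 without a filter and 73 in DESeq2. With 3 or 4 mice a group, changes of any size inside the intervals given were not excluded, and Trib3 was too low to test.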
